A study of Homo sapiens with 3 samples.

Results

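Transcripts of 10 genes of the cohesin complex and its regulators were followed in U2OS, a human osteosarcoma cell line, on 3 Affymetrix arrays. The genes were SMC1A, SMC3, RAD21, STAG1, STAG2, ESCO1, ESCO2, WAPL, PDS5A and PDS5B. They were chosen by name, as all probe sets that the platform annotation assigns to exactly 1 of these symbols, which gave 37 of the 54613 probe sets that are not controls. All cells had been transduced with a retrovirus and were harvested on day 5. The virus carried a stable form of Set8b (labelled Set8_deltaPIP2) that resists degradation through CRL4-Cdt2, wild-type Set8b (Wt-Set8b), or no insert (pMSCV-vector). Set8 (gene KMT5A) places 1 methyl group on lysine 20 of histone H4. All 3 groups share the cell line, the viral backbone and the transduction, and the labels do not say whether transduced cells were selected.

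Each group had 1 array, 3 arrays in all. No difference below has a replicate check, and none has a p-value. How precise a value is depends first on this number of arrays. As a yardstick, probe sets that read the same gene were compared with each other, which measures probe noise only and says nothing of separate cultures. Their SD over 5357 genes was 0.39 on the log2 scale with stable Set8b over vector, 0.42 with stable over wild-type Set8b and 0.36 with wild-type Set8b over vector. In RNA from a whole culture, fewer cells of one kind and less RNA per cell cannot be told apart.

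Cohesin is a ring-shaped complex that holds sister chromatids together from DNA replication until anaphase and extrudes the loops that fold interphase chromosomes. SMC1A, SMC3 and RAD21 form the ring, and 1 of the STAG proteins binds to RAD21. The acetyltransferases ESCO1 and ESCO2 modify SMC3, which makes the ring hold on to chromatin, and ESCO2 does this during S phase. WAPL, together with PDS5A or PDS5B, opens the ring and releases it, and the PDS5 proteins also help to keep acetylated rings in place. Many cohesin genes are expressed throughout the cell cycle, whereas ESCO2 is expressed mainly around S phase.

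The promoters of the paralogue pairs STAG1 and STAG2 and PDS5A and PDS5B are shown. The 2 genes of each pair read differently with stable Set8b by their brightest probe sets, though STAG2 varied by probe set. That of SMC3 is shown because it holds a motif match. Windows are the 250 bases before the most upstream start of each gene, from RefSeq (GRCh38.p14), 5′ to 3′ on the gene's strand. The table held a window for 7 of the 10 genes, and ESCO1, ESCO2 and RAD21 were without one. Capitals mark matches to 4 spellings of the E2F site (TTTCCCGC, TTTCGCGC, TTTGGCGC, TTTGCCGC) or to the cell cycle homology region TTTGAA. Both strands were searched, and none of these motifs overlapped another in these windows.
STAG1, chr3:136752379-136752628, minus strand: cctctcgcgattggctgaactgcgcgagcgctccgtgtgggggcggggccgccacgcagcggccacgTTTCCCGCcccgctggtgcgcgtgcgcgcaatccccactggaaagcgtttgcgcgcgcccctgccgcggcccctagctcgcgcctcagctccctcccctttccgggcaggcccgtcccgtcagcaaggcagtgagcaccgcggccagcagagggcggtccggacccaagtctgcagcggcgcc
STAG2, chrX:123960310-123960559, plus strand: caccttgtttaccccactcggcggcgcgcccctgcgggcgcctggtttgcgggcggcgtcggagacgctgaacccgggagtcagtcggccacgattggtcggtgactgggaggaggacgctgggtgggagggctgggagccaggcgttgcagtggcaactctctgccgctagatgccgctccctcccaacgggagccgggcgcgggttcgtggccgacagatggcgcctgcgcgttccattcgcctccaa
PDS5A, chr4:39977912-39978161, minus strand: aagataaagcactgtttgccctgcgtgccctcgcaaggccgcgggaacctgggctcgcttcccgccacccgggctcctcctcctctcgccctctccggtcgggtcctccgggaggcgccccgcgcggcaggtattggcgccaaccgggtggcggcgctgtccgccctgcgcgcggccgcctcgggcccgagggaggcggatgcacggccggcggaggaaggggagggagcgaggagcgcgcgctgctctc
PDS5B, chr13:32586202-32586451, plus strand: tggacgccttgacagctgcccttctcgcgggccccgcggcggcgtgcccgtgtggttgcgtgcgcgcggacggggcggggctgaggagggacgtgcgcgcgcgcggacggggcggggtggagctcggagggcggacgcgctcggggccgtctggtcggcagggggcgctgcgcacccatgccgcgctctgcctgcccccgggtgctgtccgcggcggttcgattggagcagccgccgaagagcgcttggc
SMC3, chr10:110567445-110567694, plus strand: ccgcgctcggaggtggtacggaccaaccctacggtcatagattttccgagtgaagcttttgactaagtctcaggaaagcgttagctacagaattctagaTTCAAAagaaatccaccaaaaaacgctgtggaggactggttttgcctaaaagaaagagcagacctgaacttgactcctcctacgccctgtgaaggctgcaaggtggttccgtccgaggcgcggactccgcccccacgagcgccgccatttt
In STAG1 the spelling TTTCCCGC stood 183 to 176 bases before the start. In SMC3 the motif TTTGAA lay on the opposite strand, 151 to 146 bases before the start, where the printed strand reads TTCAAA. The windows of PDS5A, PDS5B, SMC1A, STAG2 and WAPL held none of these letters. An E2F spelling occurred in 2.78% of all 27305 gene windows of this length and TTTGAA in 13.6%, so 1 match of each among 7 windows describes these windows and no more. The GC content was 74.4% for STAG1, 70.0% for STAG2, 75.2% for PDS5A, 78.0% for PDS5B and 52.8% for SMC3.

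Signals below are array intensities after quantile normalization, and differences are on the log2 scale. A probe set counted as measured where its mean signal over the 3 arrays was at or above 51.4, the median. Of the 37 probe sets 26 passed, at least 1 for each of the 10 genes, and the brightest stood for its gene. Of 6 mesenchymal and bone markers 5 were measured and COL1A2 was not. With stable Set8b over vector VIM was at 0.02, SPARC at 0.21, COL1A1 at 0.26, RUNX2 at -0.62 and ALPL at 1.28, the last from a dim vector signal of 37.7. The direction depended on the probe set for RUNX2 (-0.62 to 0.70), COL1A1 (-0.89 to 0.78) and SPARC (-0.05 to 0.21). Of 4 epithelial markers EPCAM passed, at 431 in vector cells, 425 in wild-type Set8b cells and 169 in stable Set8b cells, and 3 did not. Of the leukocyte markers CD3D passed, at 107 in vector cells, 75.9 in wild-type Set8b cells and 200.2 in stable Set8b cells. CD79A passed at 99.7, 184 and 117 in the same order, and PTPRC and CD14 lay below the filter. The array labelled stable Set8b stood apart in its hybridisation spike-ins, with a median ratio over vector of 0.796 against 1.01 for wild-type Set8b (18 probe sets). In the poly-A spike-ins (27 probe sets) the vector array stood apart instead, with ratios over vector of 0.463 for stable and 0.453 for wild-type Set8b, which touches both comparisons with vector. The 3′ over 5′ ratio of GAPDH, a sign of RNA quality, was 1.03 in vector cells, 1.12 in wild-type Set8b cells and 1.02 in stable Set8b cells, and that of ACTB was 8.0, 7.56 and 7.33. The part of these markers and spike-ins in the values below was not tested.

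Stable Set8b was first set against the empty vector, which asks how undegraded enzyme affects transcript levels. Of the 10 cohesin genes 9 read lower with stable Set8b than with vector and 1, ESCO1, read higher. The lowest values were those of the establishment factor ESCO2, PDS5B and STAG1. ESCO2 was at -2.26 as measured, but at -1.34 or lower with its dim signal set to 50, so its place relative to PDS5B at -1.34 is not settled. The ring subunits SMC3, SMC1A and RAD21 were 1.5-fold, 1.61-fold and 1.71-fold lower, while WAPL and PDS5A differed by less than 0.2. At least 2-fold lower were 2 of the 10 genes (ESCO2 and PDS5B), against 4.81% of all 11783 genes measured. At least 2-fold higher were 0, against 5.23%. ESCO2 passed the filter only through its higher signals on the other arrays, so its low reading is partly built into the filter. The median over the 10 was -0.64, beside -0.01 over all genes, and 50.6% of all genes lay below 0. At 1.5-fold the count was 6 of 10 lower, against 14% of all genes.

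**Figure D1:**
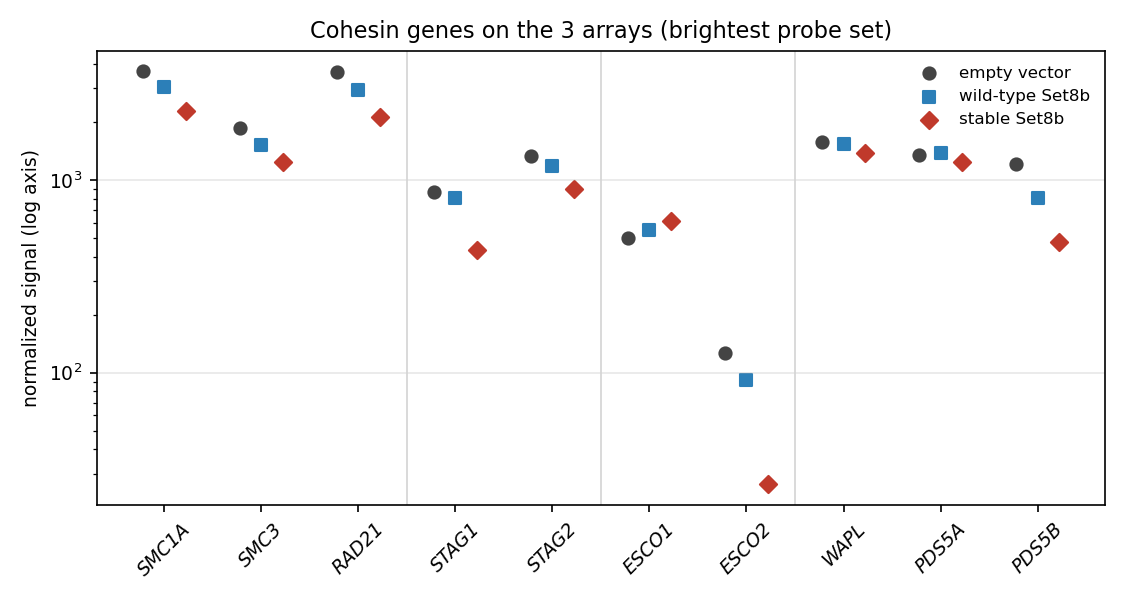
Quantile-normalized signal (log axis) of the brightest probe set of each cohesin gene on the vector (circles), wild-type Set8b (squares) and stable Set8b (diamonds) arrays, 1 array each. ESCO2 lies at 127, 91.6 and 26.4, ESCO1 runs the other way, and levels of different genes are not comparable.

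The ring subunits read lower together. SMC1A, an ATPase arm of the ring, had signals of 3663 in vector cells, 3041 in wild-type Set8b cells and 2269.5 in stable Set8b cells. Its differences of stable Set8b from vector were -0.69 by this probe set and -1.19 and -0.86 by the dimmer ones that passed. SMC3, the other arm and the substrate of the ESCO enzymes, read 1856 in vector cells, 1524 in wild-type Set8b cells and 1235 in stable Set8b cells. This gave -0.59, with its other measured probe sets at -0.54 and -0.96. RAD21, the subunit that closes the ring and is cut by separase, read 3629 in vector cells, 2929 in wild-type Set8b cells and 2128 in stable Set8b cells. Its differences were -0.77 by the brighter and -1.16 by the dimmer probe set. All 8 measured probe sets of the ring genes lay below 0, as did 51.5% of all measured probe sets. In SMC1A and RAD21 the dimmer probe sets showed larger differences than the brightest one. The dimmer SMC1A probe sets read 46.5 and 40.9 with stable Set8b, under the filter level of 51.4. They passed only through their higher signals on the other arrays, so a low reading with stable Set8b is partly built into the filter. The one SMC3 probe set below the filter read 19.6 in vector cells, 54.6 in wild-type Set8b cells and 22.2 in stable Set8b cells.

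STAG1 and STAG2 encode the alternative subunits that dock on RAD21, and a given ring holds only 1 of them. STAG1 read 866 in vector cells, 804 in wild-type Set8b cells and 433 in stable Set8b cells. The difference of -0.999 was just short of 2-fold, so STAG1 is not in the count above. With the values as deposited it was just past 2-fold, which made the count 3 of 10. Its other probe sets lay at -1.04 and -0.70, the last at signals of 37.6 to 69.3. STAG2 was less settled. By its brightest probe set it read 1332 in vector cells, 1183 in wild-type Set8b cells and 899 in stable Set8b cells, a difference of -0.57. Its other 2 probe sets went the other way, at 0.25 and 0.28, with signals between 137 and 243. Averaged over its probe sets STAG2 was at -0.01, so its direction depends on the probe set. All 3 STAG1 probe sets lay below all 3 STAG2 probe sets in this comparison. The gap between the nearest, at -0.70 and -0.57, was smaller than the SD between probe sets of 0.39. The STAG1 probe set at -0.70 passed the filter only through its signals on the other arrays. How often the probe sets of 2 genes separate in this way was not counted.

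ESCO1 and ESCO2 differed most within a pair. ESCO2 read 127 in vector cells, 91.6 in wild-type Set8b cells and 26.4 in stable Set8b cells, 4.80-fold lower than with vector (-2.26). A signal of 26.4 is below the filter level and may be background, so with that side set to 50 the gene was at least 2.53-fold lower (-1.34). The 3 other ESCO2 probe sets were below the filter and also read lower, at -1.53, -0.87 and -0.64. ESCO1, the acetyltransferase that acts outside S phase as well, read 498 in vector cells, 552 in wild-type Set8b cells and 611 in stable Set8b cells. The difference of 0.29 was smaller than the SD between probe sets. The 2 dim ESCO1 probe sets, with signals of at most 27.0, lay at -0.70 and -1.48.

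Among the releasing factors PDS5B stood apart from PDS5A and WAPL. PDS5B read 1216 in vector cells, 803 in wild-type Set8b cells and 479 in stable Set8b cells, 2.54-fold lower (-1.34). That probe set ends in _x_at, a class that can also read related transcripts. The other 2 measured probe sets of PDS5B read lower too. The brighter of these read 146 in vector cells, 181 in wild-type Set8b cells and 69.0 in stable Set8b cells (-1.08). The dimmer read 92.8 in vector cells, 89.8 in wild-type Set8b cells and 54.0 in stable Set8b cells (-0.78). With _x_at and _s_at probe sets left out, this last one stood for PDS5B, which was then short of 2-fold. PDS5A, its paralogue, read 1354 in vector cells, 1389 in wild-type Set8b cells and 1239 in stable Set8b cells (-0.13), and its 4 probe sets lay between -0.13 and 0.21. All 3 measured PDS5B probe sets were thus below all 4 of PDS5A, though how often 2 genes separate in this way was not counted. WAPL, which unloads cohesin from chromosome arms, read 1569 in vector cells, 1538 in wild-type Set8b cells and 1383 in stable Set8b cells, a difference of -0.18. Its 3 measured probe sets lay within -0.25 and -0.18, inside the SD between probe sets. The 3 dim PDS5B probe sets were at -1.56, 0.00 and 0.05, where 0.00 means both signals at the floor of 7.7.

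**Figure D2:**
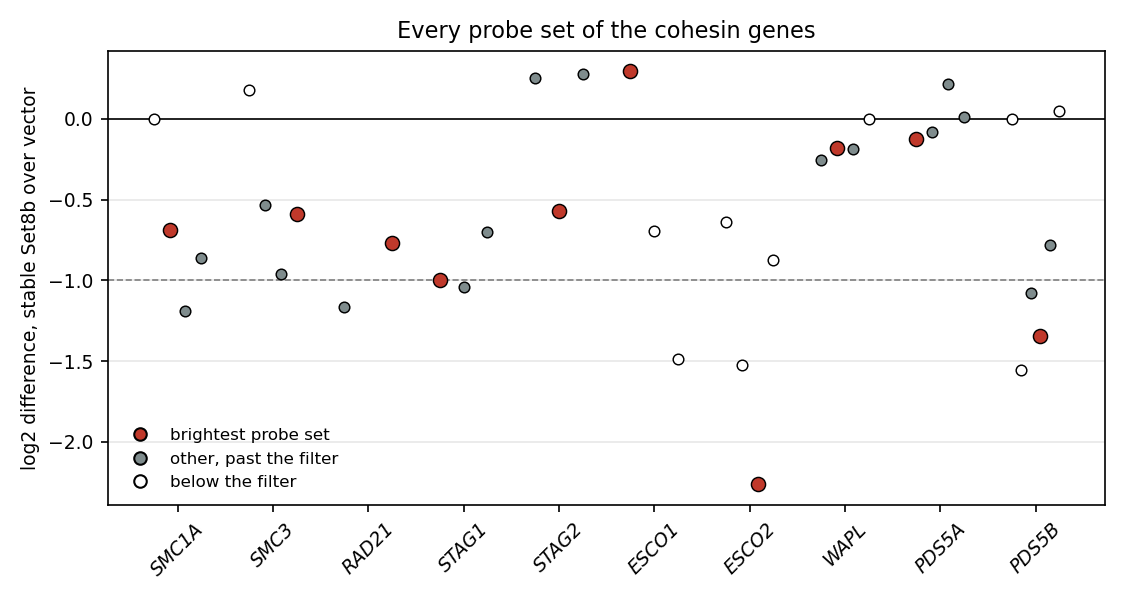
Log2 difference of stable Set8b over vector for each of the 37 probe sets of the 10 genes, with the brightest probe set in red, others past the filter in grey and those below it open; the dashed line is 2-fold lower. Measured probe sets of SMC1A, SMC3, RAD21, STAG1, ESCO2, WAPL and PDS5B lie below 0 throughout, those of WAPL only slightly, while those of STAG2 and PDS5A fall on both sides.

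Counted over probe sets, 21 of the 26 measured ones were below 0, as were 51.5% of all measured probe sets. At least 2-fold lower were 6 of them, against 4.92% of all 20546 measured probe sets. These 6 belonged to SMC1A, RAD21, STAG1 and ESCO2 (1 each) and to PDS5B (2). Those of ESCO2 and SMC1A read 26.4 and 46.5 with stable Set8b, under the filter level of 51.4. They passed only through their higher signals on the other arrays. Among the 21, the same held for another SMC1A probe set (-0.86) and for a STAG1 probe set (-0.70). The low readings of these probe sets are partly built into the filter. Probe sets of 1 gene on the same arrays are not replicates. The pooled SD between probe sets within the 8 genes that had several was 0.26.

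Stable Set8b was then set against wild-type Set8b, which asks what resistance to degradation adds. Both comparisons use the one stable Set8b array. Again 9 of the 10 genes read lower with stable Set8b, as did 51.4% of all genes. At least 2-fold lower was 1 gene, ESCO2, against 4.8% of all genes, and 0 were at least 2-fold higher, against 4.45%. The median was -0.41, beside -0.02 over all genes. At 1.5-fold the count was 3 of 10 lower (ESCO2, STAG1 and PDS5B), against 14.4% of all genes. ESCO2 was at -1.80, or at least 1.83-fold lower with the dim side set to 50. Its place past 2-fold thus rests on a signal that may be background. Here too the gene passed the filter only through the other arrays. STAG1 was at -0.89, with its 3 probe sets between -0.89 and -0.76. PDS5B was at -0.75, with probe sets between -1.39 and -0.73. The ring genes differed less, RAD21 by -0.46, SMC1A by -0.42 and SMC3 by -0.30. For STAG2 the brightest probe set gave -0.40 and the highest 0.67. PDS5A at -0.16, WAPL at -0.15 and ESCO1 at 0.15 were within the SD between probe sets of 0.42. So were SMC3 and the brightest probe set of STAG2, and SMC1A was about equal to it.

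Wild-type Set8b compared with vector asks what the degradable enzyme does at this level of expression, and it shares the vector array with the first comparison. Differences were small. At least 2-fold lower were 0 of the 10 genes, against 0.653% of all genes, and 0 were at least 2-fold higher, against 1.02%. At 1.5-fold 1 of 10 was lower (PDS5B), against 4.11% of all genes. Of the 10 genes 8 read lower, as did 48.6% of all genes, and the median was -0.22, beside 0.01 over all genes. PDS5B had the lowest value at -0.60, but its other measured probe sets were at -0.05 and 0.31. ESCO2 was at -0.47, RAD21 at -0.31, SMC3 at -0.28 and SMC1A at -0.27. STAG2 was at -0.17, STAG1 at -0.11 and WAPL at -0.03, with ESCO1 at 0.15 and PDS5A at 0.04. All but PDS5B and ESCO2 were inside the SD between probe sets of 0.36.

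**Figure D3:**
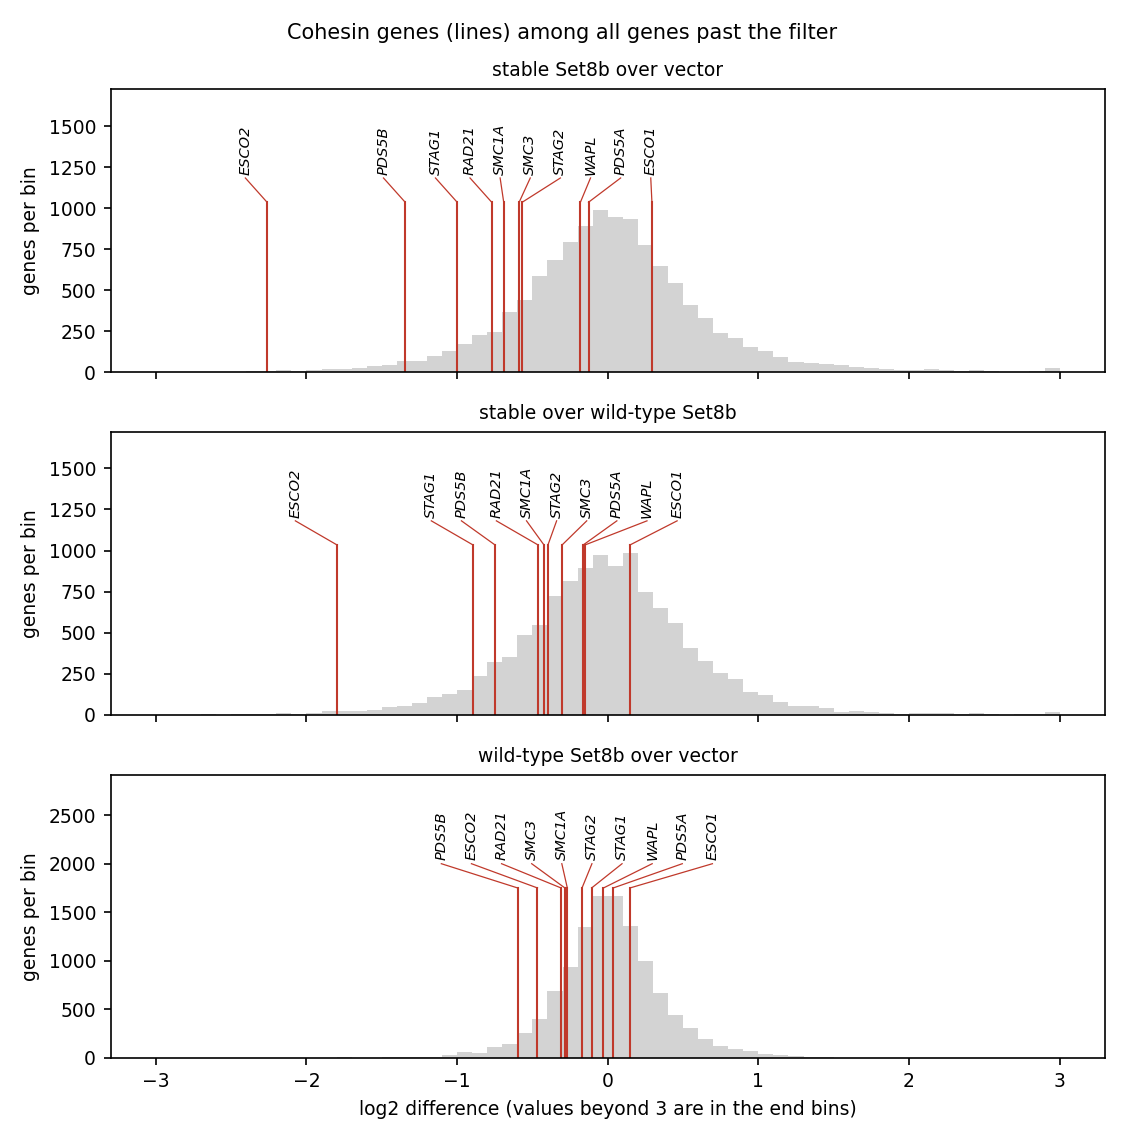
Number of genes per 0.1 bin of log2 difference (grey, 11783 genes) with the 10 cohesin genes as red lines, for each of the 3 comparisons. With stable Set8b over vector ESCO2, PDS5B and STAG1 lie at -2.26, -1.34 and -0.999, and with wild-type Set8b over vector all 10 lie between -0.60 and 0.15.

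Across the 3 arrays the wild-type signal lay between those of vector and stable Set8b for 9 of the 10 genes, against 41.2% of all genes. For 8 it fell in the order vector, wild-type, stable Set8b, against 20.7% of all genes. ESCO1 had the reverse order and PDS5A read highest with wild-type Set8b. For most of these genes 1 or both steps were smaller than the SD between probe sets, so the order of neighbouring arrays is not settled. The step from vector to wild-type was the smaller one for STAG1 (0.11 against 0.89) and ESCO2 (0.47 against 1.80), in size. For SMC3 the 2 steps were about equal, at 0.28 and 0.30 in size. The falling order was not particular to these genes. Among the lists described below it held for 6 of 8 condensin genes, 4 of 6 SMC5/6 genes and 11 of 22 other cohesin pathway genes.

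Other genes of the cohesin pathway were read from a list of 25, of which 22 were measured. With stable Set8b over vector 19 read lower, 7 of them by at least 2-fold, and 0 were at least 2-fold higher. Over all genes 50.6% lay below 0, 4.81% were at least 2-fold lower and 5.23% at least 2-fold higher. The median of the 22 was -0.64, the same as that of the 10 cohesin genes to 2 decimals. The 7 were CDCA5, SGO1, ESPL1, CTCF, TIMELESS, TIPIN and AURKB. The loader subunit NIPBL was at -0.54, with 5 probe sets between -0.62 and -0.31, and its partner MAU2 was at 0.25 by one probe set and -0.27 by the other.

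Genes that guard, regulate or end cohesion in mitosis varied with stable Set8b over vector. SGO1 (shugoshin), which protects centromeric cohesin, read 394 in vector cells, 385 in wild-type Set8b cells and 108 in stable Set8b cells (-1.86), and its other probe set was at -1.01. SGO2 was at -0.61 by its brighter and -1.25 by its dimmer probe set. AURKB, the kinase of the chromosomal passenger complex, read 832 in vector cells, 827 in wild-type Set8b cells and 229 in stable Set8b cells (-1.86). ESPL1 (separase), the protease that cuts RAD21, read 2581 in vector cells, 2786 in wild-type Set8b cells and 1060.3 in stable Set8b cells (-1.28), with its other probe set at -1.54. Its inhibitor PTTG1 (securin) was at -0.19, by an _x_at probe set. Among the other mitotic kinase genes PLK1 was at -0.36, CDK1 at -0.46, HASPIN at -0.67 and BUB1 at -0.94. CDCA5 (sororin), which counters WAPL on acetylated cohesin, read 1286 in vector cells, 1191 in wild-type Set8b cells and 612 in stable Set8b cells (-1.07). For SGO1, AURKB and ESPL1 the vector and wild-type arrays lay close together and the stable Set8b array alone was low.

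Factors that link cohesion to the replication fork ranged from -1.27 to -0.27. TIMELESS and TIPIN, which form the fork protection complex, were at -1.27 and -1.26. WDHD1 was at -0.93, and CHTF8, DSCC1 and CHTF18, parts of an alternative clamp loader, were at -0.59, -0.74 and -0.27, the last inside the SD between probe sets. The helicase DDX11 was at -0.52, with probe sets between -0.98 and -0.52. HASPIN, BUB1, PLK1, CDK1, WDHD1, CHTF8, DSCC1, CHTF18 and REC8 lie outside the rule for named genes and were added after their values were seen. CTCF, the DNA-binding protein at which extruding cohesin halts, read 1079.7 in vector cells, 882 in wild-type Set8b cells and 472 in stable Set8b cells (-1.19, 1 probe set). The SMC3 deacetylase HDAC8 was at 0.01, with probe sets between -0.75 and 0.01. The meiotic cohesin genes SMC1B, STAG3 and RAD21L1 were not measured above the filter. A further meiotic gene, REC8, passed by 1 of its 2 probe sets. It read 54.0 in vector cells, 83.9 in wild-type Set8b cells and 89.7 in stable Set8b cells. At 0.73 it was the highest of the 22 with stable Set8b over vector, from a dim signal.

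With stable over wild-type Set8b the median of the 22 was -0.74, and 5 were at least 2-fold lower, against 4.8% of all genes. These were SGO1 at -1.83, AURKB at -1.85, ESPL1 at -1.39, TIMELESS at -1.10 and TIPIN at -1.06. By their other measured probe sets SGO1 was at -0.83 and TIMELESS at -0.58, short of 2-fold. With wild-type Set8b over vector 0 of the 22 were at least 2-fold lower, against 0.653% of all genes, and 0 higher, against 1.02%, with a median of -0.02.

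The other SMC complexes were set beside cohesin as a description, with no test of the difference. All 8 condensin genes, whose products compact mitotic chromosomes, lay below 0 with stable Set8b over vector by their brightest probe sets. For 1 of them the direction depended on the probe set (-0.94 to 0.13). At least 2-fold lower were 5 of the 8, against 4.81% of all genes, and the median was -1.21, beside -0.64 for cohesin and -0.01 over all genes. SMC2, an ATPase of condensin, read 1035 in vector cells, 859.8 in wild-type Set8b cells and 308 in stable Set8b cells (-1.75). NCAPG was at -1.35 and NCAPD3 at -1.34. Of 7 genes of the SMC5/6 complex, which acts in DNA repair, 6 were measured and all lay below 0, as did 50.6% of all genes. Their median was -0.64, and 1 was at least 2-fold lower, against 4.81% of all genes. That gene was NSMCE4A at -1.20, with probe sets between -1.24 and -0.63 and no 2-fold difference once _x_at and _s_at probe sets were left out. SMC5 was at -0.88 by its brightest and -0.11 by its other measured probe set.

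**Figure D4:**
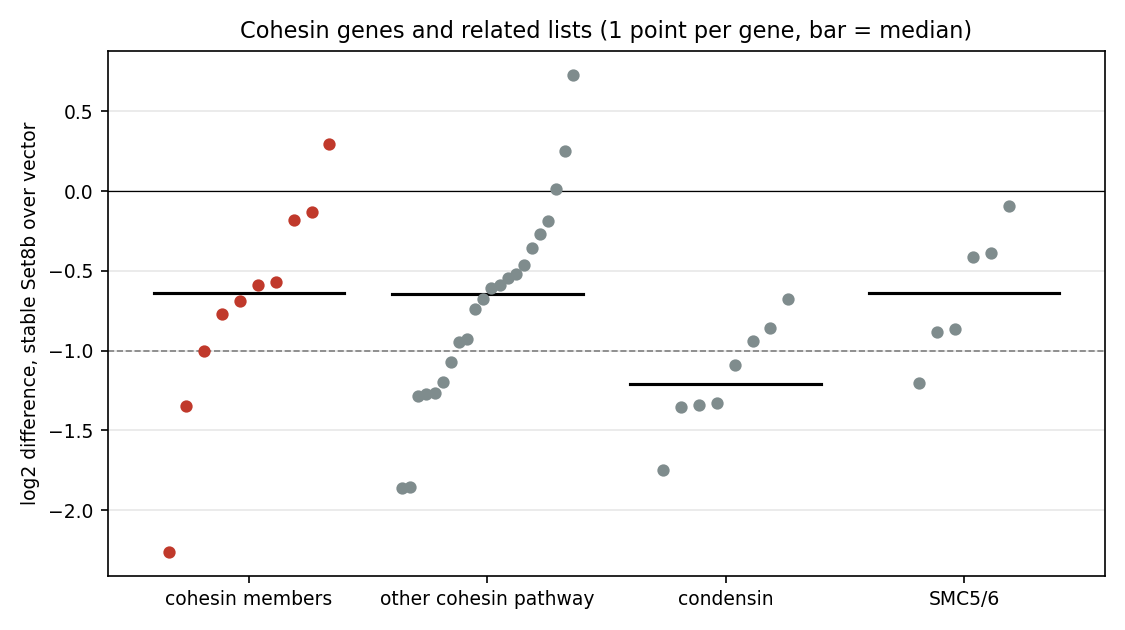
Log2 difference of stable Set8b over vector for each measured gene (points) of the cohesin members (10), the other cohesin pathway genes (22), condensin (8) and SMC5/6 (6), with the median as a bar and 2-fold lower dashed. Medians are -0.64, -0.64, -1.21 and -0.64.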

How the data were processed

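As deposited, the file holds 1 linear intensity per probe set, 54675 on each of 3 arrays. Per the labels' protocols, RNA was extracted with Trizol and hybridised by the array maker's protocol. The sources used here do not give the software behind the intensities. Every array has a trimmed mean of 250.0 (2% trimmed at each end), and the log2 medians span 0.15.

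The 62 control probe sets were left out. The arrays were quantile normalized, signals under the 20th percentile were raised to it (7.7), and log2 was taken. Genes were named from 41091 probe sets with 1 symbol in the platform annotation (1801 had several, 11721 none). All 10 member symbols matched RefSeq by Entrez identifier. Of these probe sets the brighter part by mean log2, 20546, was kept, and the brightest stood for each of 11783 genes. Quantile normalization removes any overall shift, and background compresses differences of dim genes.

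There is no test with 1 array per group. Genes were counted at 2-fold. The members, lists, motifs and alternatives were chosen with earlier results of these data known. By rule all 10 members were named, as were 10 set pathway genes, others past 2-fold, and up to 3 per comparison complex. Further pathway genes, listed in the Results, were added outside this rule after their values were seen. The steps were tested on simulated data. Python 3.11.15, numpy 2.4.6, pandas 2.3.3 and matplotlib 3.10.9 were used.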

Additional observations from a re-analysis of the deposited data

How the results depend on the processing

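The 9 alternatives to the normalization, floor, filter and choice of probe set left each median of the 10 cohesin genes within the SD between probe sets. No member past 2-fold changed sign. Thresholds of 1.5-fold and 3-fold were applied to the counts only. Of 93 counts and medians over the 10 genes, 8 moved. A count moved where it changed by more than 1.5-fold, or to or from 0. A median moved where it changed by the SD between probe sets or more. The 93 include the counts of genes at least 2-fold higher, which were 0 under every setting. With stable Set8b over vector the 2 genes at least 2-fold lower became 1 among the brightest 25% of probe sets (9 genes measured, ESCO2 not among them), 1 without _x_at and _s_at probe sets (8 genes measured, PDS5B then at -0.78), 6 at 1.5-fold and 1 at 3-fold. With stable over wild-type Set8b the 1 gene became 0 with a floor at a signal of 50, 0 among the brightest 25% of probe sets and 3 at 1.5-fold, and with wild-type Set8b over vector 0 became 1 at 1.5-fold. Centring arrays on their medians moved the median of all genes by over 0.1, to -0.12 (stable Set8b over vector) and -0.13 (wild-type Set8b over vector), and STAG1 was then at -1.11 over vector, making 3 genes at least 2-fold lower. The count was also 3 with values as deposited, and neither of these changes is among the 8. STAG2 over wild-type turned to 0.20 as a mean over probe sets. As a mean over probe sets PDS5A turned to 0.003 over vector, 0.10 over wild-type and -0.10 with wild-type Set8b, and the last was -0.13 with arrays centred. Leaving out a replicate was not possible with 1 array per group. No paired analysis was possible because each group has 1 array. Low signals limit ESCO2 most.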
